A study of Sus scrofa with 12 samples.

Results

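The actin and myosin genes examined here are the actins, the heavy and light chains of myosin, the unconventional myosins, and the tropomyosins, troponins, calponins, transgelins, alpha-actinins, caldesmon and desmin that work with them. They were taken by gene symbol: a probe set belonged if the platform annotation gave it exactly 1 symbol and that symbol began with MYL, MYH, MYO, TPM or TNN (MYH, MYO and TPM followed by a digit), with ACT followed by A, B, C, G or N, or with TAGLN, or was CNN1, CNN2, CNN3, CALD1 or DES. This gave 73 of the 23999 probe sets tested and 48 of the 6765 named genes, with each gene represented by its brightest probe set on average over the 12 arrays. By role, 10 genes are typical of smooth muscle, 13 are cytoplasmic actins, non-muscle myosin II subunits and their partners, 8 are unconventional myosins and 17 are typical of striated muscle. MYH11, the smooth muscle myosin heavy chain, had no probe set under that symbol and was not analysed here.

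The values are log2 expression values from 12 Affymetrix porcine arrays, 1 per sow. The pregnant group held 6 sows (3 Landrace, 3 Yorkshire) slaughtered on Day 14 after insemination. The non-pregnant group held 6 sows (3 Landrace, 3 Yorkshire) of the same day that had been inseminated with inactivated semen. The breeds were compared as Landrace against Yorkshire over the same animals, with 3 pregnant and 3 non-pregnant sows in each. The tissue was endometrium, with the epithelium, lamina propria and submucosa but not the muscle layer of the uterus, taken at several places of both flushed horns.

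In smooth muscle, calcium entering the cell activates a kinase that phosphorylates the regulatory light chain of myosin II, and myosin then pulls on actin filaments that tropomyosin, calponin and caldesmon line. The same machinery, built from cytoplasmic actins and non-muscle myosin II, shapes epithelial and stromal cells and drives their movement, whereas unconventional myosins carry vesicles and hold membranes to the actin cortex. In endometrium, smooth muscle proteins occur in vessel walls, pericytes and contractile stromal cells, and the myometrium lies beneath it. Whether any muscle layer was carried over into the samples was not tested.

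Some arrays stood apart. Non-pregnant sow 7 had the array least like any other (r = 0.975 with its nearest array, across probe sets, which are not independent), and the mean of 7 leukocyte markers lay 1.12 log2 units above the 12-sow mean in that sow, against -0.60 to 0.41 in the other 11. The arrays of pregnant sow 12 and non-pregnant sow 11 were each other's nearest (r = 0.992), and the array nearest to pregnant sow 8 was non-pregnant sow 5. For the 48 genes, calls made or lost on omitting 1 of these sows are given below. RNA integrity, read as the 3' minus 5' difference of the actin controls, averaged 1.17 ± 0.21 in pregnant sows, against 1.19 ± 0.13 in non-pregnant sows (SD of log2 values, n = 6 each), and that of the GAPDH controls 1.363 ± 0.204 in pregnant sows, against 1.199 ± 0.289 in non-pregnant sows.

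The 48 genes were measured at very different heights of the arrays. Of them, 21 had a mean above the upper quartile of all probe set means and 11 below the lower quartile. In the smooth muscle group 7 of 10 means lay above the upper quartile, and among the cytoplasmic and non-muscle genes 10 of 13 did. Of the striated muscle genes 14 of 17 lay below the median and 8 below the lower quartile, where values hold mostly background.

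The first question was which of these transcripts differ between pregnant and non-pregnant endometrium. After adjustment over all probe sets 2 of 48 genes rose with pregnancy, MYL9 and MYLIP, and 0 fell (limma, adjusted p under 0.05), where 7.88% of all 23999 probe sets were called in either direction, 3.95% higher and 3.94% lower. At an unadjusted p under 0.05 the members numbered 8 higher and 6 lower, against 11.2% and 12% of all probe sets. Of the 48 differences 30 were positive, and 52.8% of all probe sets were. The median difference was 0.064 over the members and 0.010 over all probe sets. In 0 of 48 genes did the 6 pregnant sows lie wholly above or below the 6 non-pregnant sows, which 2.7% of all probe sets did. The shares of members called after adjustment and of those lower at the unadjusted threshold were near the background or below it, and the shares higher at the unadjusted threshold and with a positive difference were above it.

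**Figure D1:**
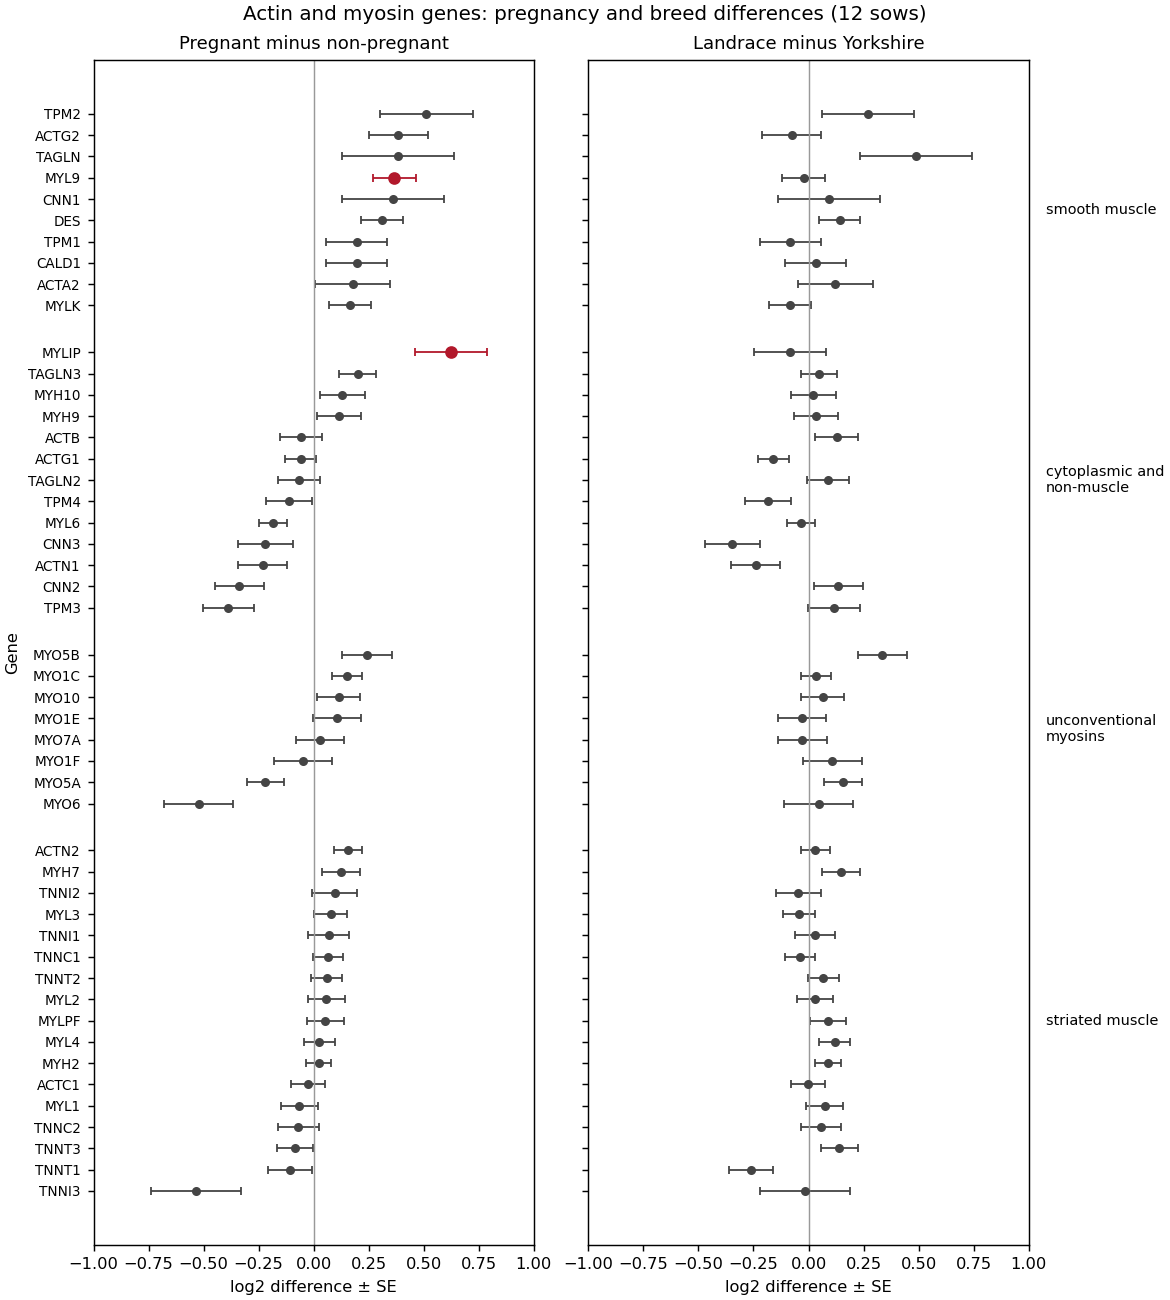
Log2 difference of each of the 48 genes with its standard error, pregnant minus non-pregnant sows on the left and Landrace minus Yorkshire sows on the right (limma, 12 sows), grouped by role and ordered by the pregnancy difference. Red points are the 2 genes called at adjusted p under 0.05, MYLIP and MYL9, both for pregnancy; all 10 smooth muscle genes lie right of 0 on the left panel and 6 of 10 on the right panel.

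The smooth muscle genes had the most even pattern. All 10 were higher on average in pregnant sows, by 0.17 to 0.51 on the log2 scale with a median of 0.34, while 1 of the 10 passed the test. The evenness depends on how genes were assigned to roles, and members and lists were chosen with earlier results of these data known. MYL6, shared by smooth muscle and non-muscle myosin II, was placed with the non-muscle genes and differed by -0.18. MYL9, the regulatory light chain that the contraction kinase phosphorylates, had lowest, median and highest log2 values of 8.63, 8.93 and 9.11 in pregnant sows, against 8.35, 8.53 and 8.70 in non-pregnant sows. Pregnant sows 2, 6, 8 and 12 lay above every non-pregnant sow, and sows 4 and 10 lay within the non-pregnant range. The difference was 0.37 ± 0.098 (SE, 1.29-fold, adjusted p = 0.0411), higher than the non-pregnant mean in 6 of 6 pregnant sows. The call ended on omitting any 1 of 9 sows (largest adjusted p 0.0954) and held without non-pregnant sow 1, pregnant sow 4 or pregnant sow 10. The difference stayed between 0.32 and 0.43 in those 12 fits.

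DES, the muscle intermediate filament desmin, had values of 6.35, 6.57 and 6.96 in pregnant sows, against 6.05, 6.31 and 6.41 in non-pregnant sows. In pregnant sows 2, 4, 6, 8 and 10 it lay above every non-pregnant sow, and in pregnant sow 12 it did not. Its difference of 0.31 ± 0.095 missed the threshold (adjusted p = 0.0662), and a second probe set, near the bottom of the arrays, gave -0.040. Without pregnant sow 12 DES passed the test, at 0.35 (adjusted p = 0.0438), as it did in none of the other 11 fits that left out 1 sow. ACTG2, the visceral smooth muscle actin, was measured at 8.14, 8.40 and 8.69 in pregnant sows, against 7.64, 8.06 and 8.48 in non-pregnant sows. Non-pregnant sow 7 stood above 5 of the 6 pregnant sows, and the difference of 0.39 ± 0.14 (adjusted p = 0.105) became 0.50 and passed the test without that sow (adjusted p = 0.0164). TPM2, a tropomyosin that lines the actin filament, ranged over 7.82, 8.21 and 8.86 in pregnant sows, against 7.35, 7.57 and 8.47 in non-pregnant sows. Pregnant sow 8 alone lay above non-pregnant sow 7, the highest of its group, and the difference was 0.51 ± 0.21 (adjusted p = 0.160), or 0.64 without non-pregnant sow 7 (adjusted p = 0.0579). The other 3 probe sets of TPM2 also gave positive differences of 0.016 to 0.45.

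The remaining 6 smooth muscle genes had differences that did not exceed the spread between sows. TAGLN, the actin-bundling protein transgelin, had values of 8.72, 9.53 and 10.37 in pregnant sows, against 8.31, 9.09 and 9.92 in non-pregnant sows and a difference of 0.38 ± 0.25 (adjusted p = 0.415). Its groups overlapped almost wholly: only pregnant sow 8 lay above non-pregnant sow 7. CNN1, the calponin that restrains myosin's motor activity, was at 6.63, 7.43 and 8.15 in pregnant sows, against 6.65, 6.85 and 7.40 in non-pregnant sows and differed by 0.36 ± 0.23 (adjusted p = 0.396). Pregnant sow 4 had the lowest CNN1 value of all 12 sows and pregnant sow 8 the highest. ACTA2, the vascular smooth muscle actin, differed by 0.18 ± 0.17 (adjusted p = 0.605), the actin- and tropomyosin-binding protein CALD1 by 0.20 ± 0.14 (adjusted p = 0.447) and the tropomyosin TPM1 by 0.20 ± 0.14 (adjusted p = 0.450). MYLK, the light chain kinase itself, differed by 0.17 ± 0.095 (adjusted p = 0.330). Non-pregnant sow 1 had the highest MYLK value of all 12 sows, 6.28. Several of these differences leaned on 1 sow: without pregnant sow 8 that of TAGLN was 0.25, of CNN1 0.195, of ACTA2 0.081 and of TPM1 0.097, and without non-pregnant sow 3 that of CALD1 was 0.105, each missing the test.

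**Figure D2:**
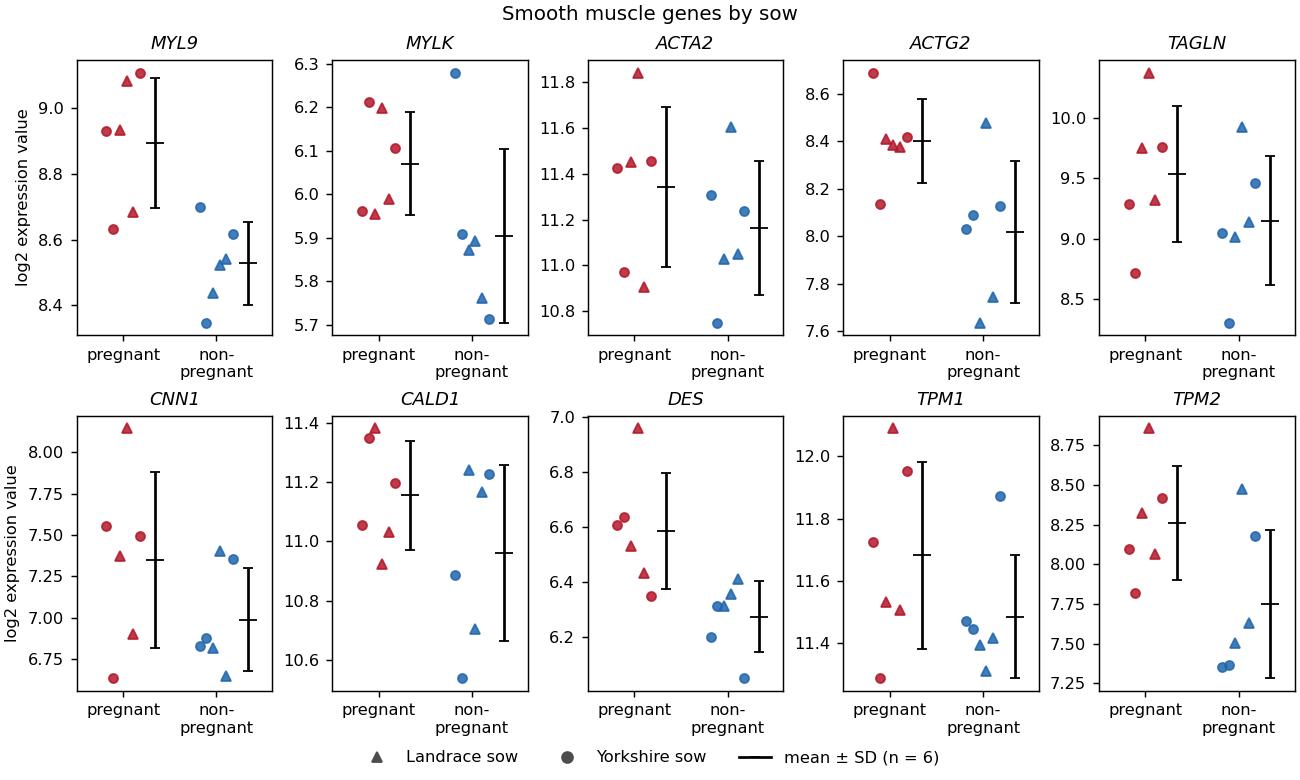
Log2 expression values of the 10 smooth muscle genes in every sow, pregnant sows (red) left of non-pregnant sows (blue), triangles Landrace and circles Yorkshire, with black bars for mean ± SD (n = 6 each). The groups overlap in all 10 panels; MYL9 has 4 pregnant sows above the highest non-pregnant sow and DES has 5.

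The pattern over the 10 genes was not carried equally by all sows. Pregnant sow 8 held the highest value of all 12 sows in 6 of the 10 genes, and non-pregnant sow 3 the lowest in 4. The mean deviation of the 10 genes from their 12-sow means ranged from -0.14 to 0.51 among pregnant sows, against -0.38 to 0.092 among non-pregnant sows, so the groups overlapped. Without pregnant sow 8 the 10 differences remained positive, at 0.081 to 0.41 with a median of 0.25. They were also positive in each breed taken alone, with medians of 0.37 in Landrace and 0.31 in Yorkshire sows, and with sows 7 and 12 left out, at 0.11 to 0.59. MYL9 then differed by 0.32 (adjusted p = 0.0796), and ACTG2 passed the test with 0.52 (adjusted p = 0.0157).

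Markers of vessel cells moved alongside. Of 7 measured markers of mural cells and pericytes, all 7 differences were positive and 2 genes rose, and of 11 endothelial markers 11 were positive and 7 rose. Among all probe sets 3.95% were called higher and 3.94% lower, and 52.8% had a positive difference. When single sows were left out, the rises numbered 0 to 4 and 4 to 7 in these lists. The mean deviation of the mural list ranged from -0.15 to 0.51 among pregnant sows, against -0.49 to -0.089 among non-pregnant sows. For the endothelial list it ranged from 0.034 to 0.53 among pregnant sows, against -0.55 to -0.048 among non-pregnant sows. The sows did not rank alike: pregnant sows 2, 4 and 6 were highest for both vessel lists, whereas pregnant sow 8, highest for the smooth muscle genes, stood at 0.050 for mural and 0.034 for endothelial markers. Pregnant sow 4, with a mural mean of 0.51, stood at -0.14 for the smooth muscle genes. Of 8 stromal markers 3 rose and 1 fell, and of 7 leukocyte and 4 erythroid markers 0 were called. The erythroid mean was 0.56 in pregnant sow 8, against -0.26 to 0.21 in the other sows. In whole tissue, more cells of a type and more RNA per cell cannot be told apart, and the part of these markers in the smooth muscle differences was not tested. SMTN, a smooth muscle protein outside the 48, differed by 0.30 ± 0.088 (adjusted p = 0.0574) and SYNM, which copolymerises with desmin, by 0.18 ± 0.15 (adjusted p = 0.542). Both are named after their values were seen. Their mean deviation ranged from -0.24 to 0.59 among pregnant sows, against -0.46 to 0.19 among non-pregnant sows. It did not rank the sows as the smooth muscle genes did: pregnant sow 12 was highest, non-pregnant sow 7 lowest, and pregnant sow 8 stood at -0.048.

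**Figure D3:**
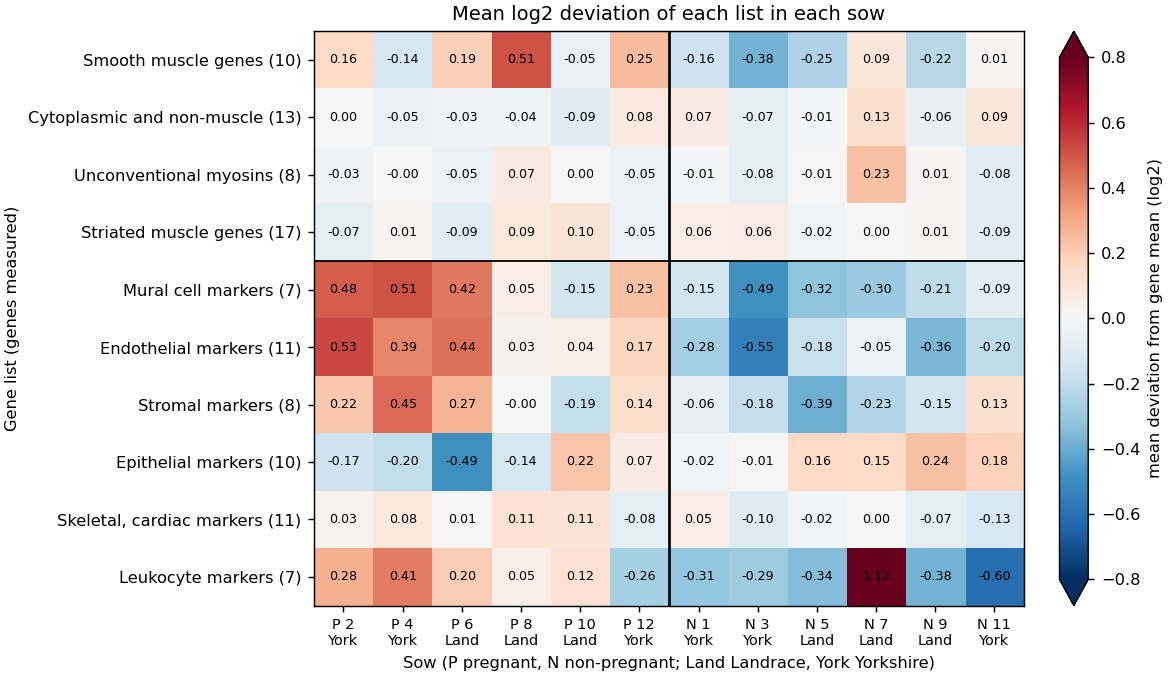
Mean deviation from the 12-sow gene mean (log2) in each sow for the 4 role groups of the 48 genes (upper rows) and 6 lists of cell type markers (lower rows), pregnant sows left of non-pregnant sows. The smooth muscle row peaks in pregnant sow 8 at 0.51, the mural and endothelial rows peak in pregnant sows 2, 4 and 6, and the leukocyte row reaches 1.12 in non-pregnant sow 7.

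Among the cytoplasmic and non-muscle genes MYLIP rose, 0 of 13 fell, and 9 of 13 differences were negative, with a median of -0.066. MYLIP is a ubiquitin ligase that binds the myosin regulatory light chain and is best known for degrading the LDL receptor; it is no part of the contractile apparatus. Its values were 8.77, 9.16 and 9.48 in pregnant sows, against 8.06, 8.45 and 8.97 in non-pregnant sows. Pregnant sows 2, 4, 6 and 8 exceeded every non-pregnant sow, and pregnant sow 12 lay below non-pregnant sows 7 and 11. The difference of 0.62 ± 0.16 (1.54-fold, adjusted p = 0.0383) was the largest among the 48. It was called in 3 of the 12 fits that left out 1 sow, those without non-pregnant sow 7, non-pregnant sow 11 or pregnant sow 12, and its adjusted p reached 0.0900 in the other 9. With sows 7 and 12 both left out it was 0.85 (adjusted p = 0.00175).

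Several non-muscle genes leaned the other way. TPM3, a tropomyosin of non-muscle cells and slow muscle, had values of 10.68, 11.02 and 11.40 in pregnant sows, against 11.27, 11.42 and 11.58 in non-pregnant sows. Every pregnant sow but sow 12 lay below every non-pregnant sow, and sows 2, 4 and 6 were lowest. The difference of -0.39 ± 0.12 had an adjusted p of 0.0647. A second bright probe set of TPM3 gave -0.41 (adjusted p = 0.1002), while another, in the dimmer part of the arrays, gave 0.087. CNN2, the calponin of non-muscle cells, was measured at 6.11, 6.25 and 6.57 in pregnant sows, against 6.35, 6.64 and 6.98 in non-pregnant sows, with 4 of 6 pregnant sows below the whole non-pregnant range. Its difference was -0.34 ± 0.11 (adjusted p = 0.0837). MYL6, the essential light chain shared by smooth muscle and non-muscle myosin II, had values of 11.66, 11.72 and 11.89 in pregnant sows, against 11.82, 11.94 and 12.03 in non-pregnant sows and differed by -0.18 ± 0.064 (adjusted p = 0.104). Again 4 pregnant sows lay below every non-pregnant sow.

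These differences depended on which sows were included. Without pregnant sow 12, TPM3 and CNN2 fell, by 0.48 (adjusted p = 0.00909) and 0.42 (adjusted p = 0.0186). With sows 7 and 12 both left out, 5 of the 48 genes fell: TPM3 by 0.47, CNN2 by 0.35, MYO6 by 0.62, TNNI3 by 0.74 and CNN3, a calponin of non-muscle cells, by 0.38, with adjusted p of 0.0138 to 0.0376. Over all 12 sows none of the 5 passed the test. The share of all probe sets called in the fit without sows 7 and 12 is not given here. The count of 5 is therefore not set against a background.

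The abundant cytoplasmic actins did not differ beyond the spread between sows. ACTB had values of 13.19, 13.34 and 13.52 in pregnant sows, against 13.002, 13.47 and 13.59 in non-pregnant sows and a difference of -0.058 ± 0.096 (adjusted p = 0.785), with non-pregnant sow 11 lowest of all 12. The sign of ACTB turned to 0.033 when its probe sets were averaged. ACTG1, named after its values were seen, differed by -0.059 ± 0.070 (adjusted p = 0.690). These actins are nearly identical in sequence, so signal of one may reach probes of the other. ACTN1, the alpha-actinin that crosslinks actin in non-muscle cells, had values of 8.80, 9.01 and 9.35 in pregnant sows, against 8.97, 9.24 and 9.61 in non-pregnant sows and differed by -0.23 ± 0.11 (adjusted p = 0.234). Its pregnant and non-pregnant sows overlapped over most of their range. MYH10, a non-muscle myosin heavy chain, lay near the bottom of the arrays and differed by 0.13 ± 0.10 (adjusted p = 0.499).

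**Figure D4:**
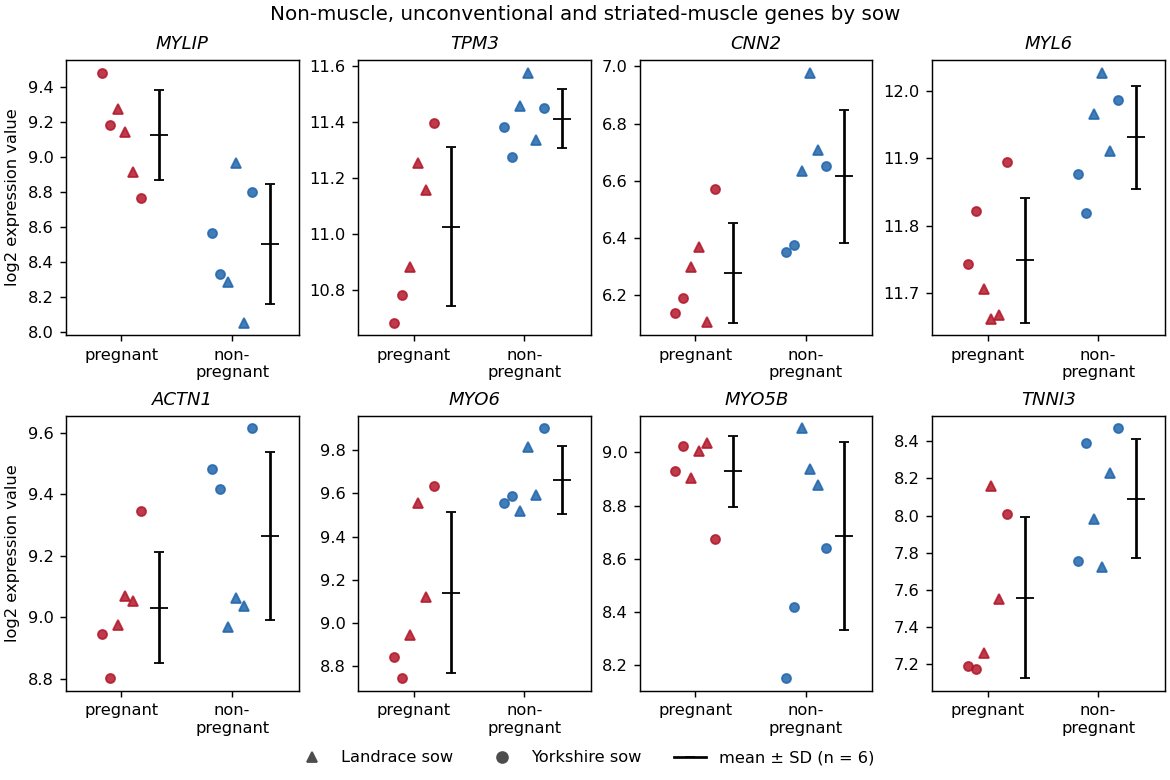
Log2 expression values of 8 genes of the other 3 roles in every sow, pregnant sows (red) left of non-pregnant sows (blue), triangles Landrace and circles Yorkshire, with black bars for mean ± SD (n = 6 each). In the TPM3 and MYO6 panels pregnant sows 2, 4 and 6, the first 3 points from the left, lie lowest of all 12 sows and pregnant sow 12, the last of its group, lies among the non-pregnant sows.

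Of the 8 unconventional myosins 0 passed the test, with 5 positive and 3 negative differences. MYO6, the motor that walks towards the minus end of actin filaments and works at the apical border of epithelia, had values of 8.74, 9.03 and 9.63 in pregnant sows, against 9.52, 9.59 and 9.90 in non-pregnant sows. Pregnant sows 2, 4, 6 and 10 lay below every non-pregnant sow, and sows 8 and 12 lay within the non-pregnant range. The difference of -0.52 ± 0.16 was in the same direction in 6 of 6 sows (adjusted p = 0.0630). It passed without pregnant sow 8 or pregnant sow 12, with a smallest adjusted p of 0.0135. MYO5A, a vesicle motor, was at 6.40, 6.50 and 6.57 in pregnant sows, against 6.44, 6.74 and 7.08 in non-pregnant sows. The pregnant sows were close together and non-pregnant sow 7 was highest, and the difference was -0.22 ± 0.085 (adjusted p = 0.141), with a second probe set at -0.33. MYO5B, the motor of recycling endosomes in epithelial cells, had values of 8.68, 8.97 and 9.03 in pregnant sows, against 8.15, 8.76 and 9.09 in non-pregnant sows and differed by 0.24 ± 0.11 (adjusted p = 0.217). Its pregnant values all lay inside the non-pregnant range. MYO1C, a class I myosin that links membranes to actin, differed by 0.15 ± 0.067 (adjusted p = 0.195), and MYO7A, known from the stereocilia of the inner ear, by 0.029 ± 0.11 (adjusted p = 0.918).

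Epithelial markers were not level between the groups. Of 10 measured markers 2 fell, CLDN7 by 0.471 and KRT8 by 0.826, 0 rose, and 7 of 10 differences were negative. Among all probe sets 3.94% were called lower and 3.95% higher. At an unadjusted p under 0.05 there were 2 higher and 4 lower markers, against 11.2% and 12% of all probe sets. When single sows were left out the rises numbered 0 to 2 and the falls 0 to 3, and without sows 7 and 12 there were 1 and 4. The list mean was lowest in pregnant sows 6, 4 and 2, at -0.49, -0.20 and -0.17, and ranged from -0.14 to 0.22 among the other pregnant sows and from -0.023 to 0.24 among non-pregnant sows. These are the pregnant sows in which TPM3, MYO6 and TNNI3 were lowest. Pregnant sow 10 did not match: its epithelial mean of 0.22 was the highest of the pregnant sows. Its TPM3, MYO6 and TNNI3 values nevertheless lay below every non-pregnant sow. The part of the epithelial markers in those 3 differences was not tested.

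The striated muscle genes gave 0 calls of 17, with 11 positive and 6 negative differences and a median of 0.053. Nearly all were dim, as were the markers of skeletal and cardiac muscle outside the 48, of which 8 of 11 lay below the lower quartile and 0 were called. TNNI3, the inhibitory troponin of cardiac muscle, was the exception in brightness, with a mean at the 76.6th percentile of all probe set means and values of 7.17, 7.40 and 8.16 in pregnant sows, against 7.72, 8.10 and 8.47 in non-pregnant sows. Pregnant sows 2, 4, 6 and 10 lay below every non-pregnant sow, and pregnant sows 8 and 12 lay among them. The difference was -0.54 ± 0.21 (adjusted p = 0.134), and it passed without pregnant sow 8 (adjusted p = 0.0442). TNNI3 had 1 probe set, and the troponin genes TNNT2 and TNNC1 had means at percentiles 8.34 and 24.9. Whether the bright probe set reads TNNI3 alone was not tested. ACTN2, the alpha-actinin of the sarcomere's Z-disc, had values of 6.69, 6.86 and 6.91 in pregnant sows, against 6.53, 6.71 and 6.79 in non-pregnant sows, with 5 of 6 pregnant sows above the non-pregnant range. Its difference was 0.16 ± 0.064 (adjusted p = 0.162). A second probe set of ACTN2, below the lower quartile, was measured at 3.98 to 4.54 in pregnant sows, against 3.71 to 4.17 in non-pregnant sows and was called, at 0.32 (adjusted p = 0.0441). MYH7, the slow myosin heavy chain, differed by 0.12 ± 0.087 (adjusted p = 0.441), TNNT1, the slow skeletal troponin T, by -0.11 ± 0.10 (adjusted p = 0.584) and TNNT2, the cardiac troponin T, by 0.060 ± 0.070 (adjusted p = 0.684).

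Genes that control this machinery, and smooth muscle targets of the SRF and myocardin pathway, were taken from 3 lists. On these lists 10 of 86 measured genes (11.6%) were called for pregnancy, against 7.88% of all probe sets. Of 38 regulators of myosin phosphorylation and contraction 26 were measured, of which 5 rose with pregnancy and 0 fell, with a median difference of 0.094. RYR2, a calcium release channel, rose by 0.57 ± 0.096 (log2 ± SE, adjusted p = 0.00708) and was called in all 12 fits that left out 1 sow. PPP1R14A, which inhibits the phosphatase that removes phosphate from the myosin light chain, rose by 0.51 ± 0.12 (adjusted p = 0.0271) and CIT, a kinase of myosin light chains in cytokinesis, by 0.76 ± 0.18 (adjusted p = 0.0275). The calls of these genes ended on omitting any 1 of 6 sows for each, and the count of rises ranged over 1 to 5 when single sows were left out. CDC42BPA, another kinase that raises light chain phosphorylation, was also called. Its call held in 3 of the 12 fits that left out 1 sow, with differences of 0.33 to 0.45 (limma, largest adjusted p 0.0909).

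Of 38 names on the list of the SRF and myocardin pathway 21 were measured. This list held both the factors that switch on smooth muscle genes and smooth muscle targets of the pathway. PDLIM5, a Z-disc and stress fibre adaptor, rose by 0.41 ± 0.080 (adjusted p = 0.0123, called in all 12 such fits), and CRIM1, a membrane protein that binds growth factors, differed by -0.996 ± 0.24 (adjusted p = 0.0298), a fall called in 5 of them. The median of the 21 was 0.22 and 17 differences were positive, with factors and targets counted together. On the list of actin assembly and turnover 39 of 52 names were measured, 2 rose and 1 fell, a share at the background, and the median was -0.062. SCIN, a filament-severing protein, rose by 1.44 ± 0.28 (adjusted p = 0.0119) in all 12 such fits, WASF1, which activates branched actin assembly, by 0.29 ± 0.075 (adjusted p = 0.0340), and the capping protein CAPG differed by -0.65 ± 0.17 (adjusted p = 0.0423). The WASF1 rise and the CAPG fall were called in 4 and 2 of the 12 fits.

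The second comparison set Landrace against Yorkshire sows. None of the 48 genes was called in either direction (0 higher, 0 lower), where 5.15% of all probe sets were, and at an unadjusted p under 0.05 there were 1 higher and 4 lower, against 9.35% and 10.8% of all probe sets. The largest difference in absolute size was TAGLN, at 9.02, 9.53 and 10.37 in Landrace sows, against 8.31, 9.17 and 9.76 in Yorkshire sows. The difference of 0.49 ± 0.25 (adjusted p = 0.315) did not exceed the spread between sows. MYO5B had values of 8.88, 8.97 and 9.09 in Landrace sows, against 8.15, 8.66 and 9.03 in Yorkshire sows and a difference of 0.34 ± 0.11 (adjusted p = 0.110). The low Yorkshire values were those of non-pregnant sows 1 and 3. CNN3 was measured at 10.65, 11.05 and 11.19 in Landrace sows, against 10.94, 11.41 and 11.63 in Yorkshire sows and differed by -0.35 ± 0.13 (adjusted p = 0.137), and TNNT1 at 4.41, 4.62 and 4.77 in Landrace sows, against 4.62, 4.87 and 5.13 in Yorkshire sows, with a difference of -0.26 ± 0.10 (adjusted p = 0.158). In both genes the breeds overlapped, and TNNT1 was dim, with a mean at the 25.9th percentile of all probe set means. The smooth muscle group had 6 positive and 4 negative breed differences with a median of 0.062.

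Breed results differed between probe sets of one gene. Of the 16 genes with several probe sets, 3 had all of them on the same side for breed and 12 did for pregnancy. The brightest probe set of ACTN1 differed by -0.24 ± 0.11 (adjusted p = 0.248). The second lay at 6.96 to 7.48 in Landrace sows, against 7.41 to 8.20 in Yorkshire sows, was called at -0.61 ± 0.11 (adjusted p = 0.0102), and its groups overlapped by a single Landrace sow. The third gave 0.069. MYO5A showed a like split: the brightest probe set differed by 0.16 ± 0.085 (adjusted p = 0.339), while the second lay at 4.68 to 5.25 in Landrace sows, against 5.22 to 6.06 in Yorkshire sows and was called at -0.69 ± 0.13 (adjusted p = 0.0103). The 3' minus 5' difference of the control probe sets was also unequal between the breeds, for actin 1.09 ± 0.10 in Landrace and 1.27 ± 0.18 in Yorkshire sows and for GAPDH 1.07 ± 0.14 in Landrace and 1.49 ± 0.13 in Yorkshire sows (SD, n = 6 each). For GAPDH the breeds did not overlap, at 0.869 to 1.248 in Landrace and 1.315 to 1.632 in Yorkshire sows, while for actin they did. The part of this inequality in these probe set differences and in the other breed differences was not tested.

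**Figure D5:**
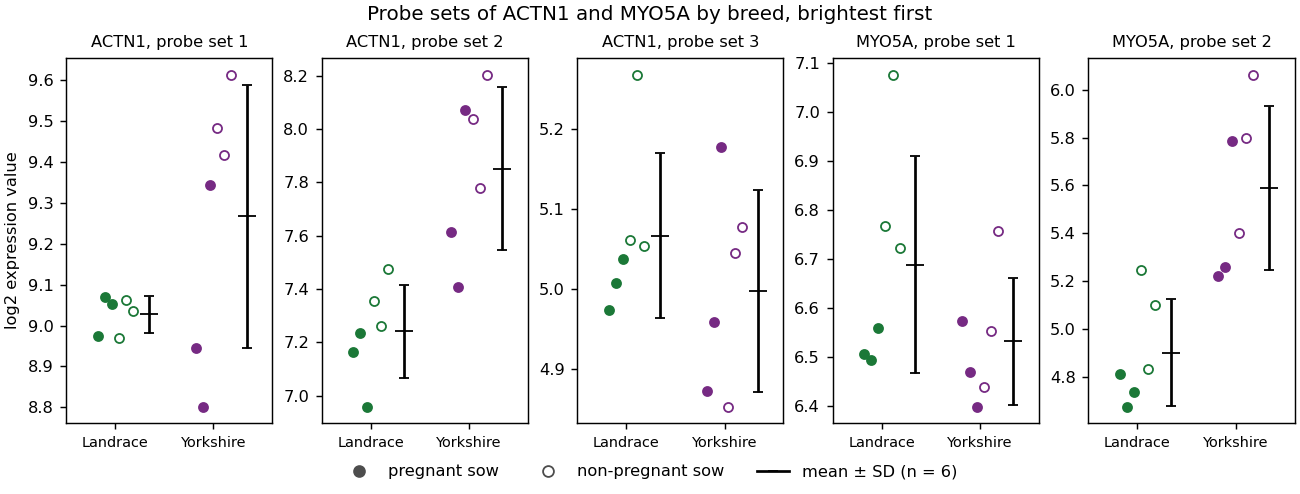
Log2 expression values of the 3 probe sets of ACTN1 and the 2 of MYO5A in every sow, Landrace left of Yorkshire, filled circles pregnant and open circles non-pregnant, with black bars for mean ± SD (n = 6 each). The second probe set of each gene is lower in Landrace sows (differences of -0.61 and -0.69), whereas the brightest probe set of MYO5A leans the other way at 0.16.

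In the 3 lists of regulators and targets 4 of 86 genes were called for breed (4.65%), a share near the 5.15% of all probe sets. The difference passed the test for PTGFR, the receptor through which prostaglandin F2-alpha acts on the uterus and ovary, at 1.53 ± 0.23 (adjusted p = 0.00405), for PDLIM5 at 0.44 ± 0.080 (adjusted p = 0.00938) and for ARPC2, a subunit of the Arp2/3 complex that nucleates branched actin, at 0.82 ± 0.17 (adjusted p = 0.0178), all higher in Landrace sows. WASL, an activator of that complex, was lower in Landrace sows, at -0.45 ± 0.057 (adjusted p = 0.00135). Each of the 4 was called in all 12 fits that left out 1 sow. The part of the unequal 3' minus 5' difference between the breeds in these 4 was not tested.

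The pregnancy difference was also taken within each breed and compared between the breeds. Within Landrace sows 0 of 48 genes were called, against 1.03% of all probe sets, and within Yorkshire sows 0 of 48, against 0% of all probe sets; at an unadjusted p under 0.05 there were 3 higher and 3 lower in Landrace sows, against 8.37% and 7.15% of all probe sets, and 5 higher and 5 lower in Yorkshire sows, against 7.11% and 8.17%. MYL9 differed by 0.40 in Landrace and 0.33 in Yorkshire sows, and MYLIP by 0.67 in Landrace and 0.57 in Yorkshire sows. The pregnancy by breed interaction was called for 0 of 48 genes and 0% of all probe sets, and at an unadjusted p under 0.05 for 3 of the 48, against 4.01% of all probe sets. With 3 sows in each cell the procedure recovered 35% of simulated interactions of 1 log2 unit and 1% of those of 0.5, so interactions of these sizes were mostly missed there. The simulated noise was independent between probe sets, so recovery in the real arrays may differ.

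The 3 interactions with the smallest p, each with an adjusted p of 0.9996, were those of TNNT1, ACTN1 and MYO5B. For TNNT1 the pregnant Landrace sows had 4.48, 4.74 and 4.77 and the non-pregnant Landrace sows 4.69, 4.41 and 4.56, and the pregnant Yorkshire sows had 4.62, 4.67 and 4.82 and the non-pregnant Yorkshire sows 5.06, 5.13 and 4.91. Pregnant sows thus lay below non-pregnant sows in Yorkshire but not in Landrace (interaction 0.44 ± 0.16, Landrace minus Yorkshire, unadjusted p = 0.0195). TNNT1 was dim, below the array median on 12 arrays and below the lower quartile on 5 of them. For ACTN1 the pregnant Landrace sows had 8.97, 9.07 and 9.05 and the non-pregnant Landrace sows 8.97, 9.06 and 9.04, and the pregnant Yorkshire sows had 8.94, 8.80 and 9.35 and the non-pregnant Yorkshire sows 9.48, 9.42 and 9.61. The Landrace sows were almost level. The Yorkshire sows spread widely, with every pregnant sow below every non-pregnant sow (interaction 0.48 ± 0.18, unadjusted p = 0.0204). MYO5B differed by 0.012 between pregnant and non-pregnant Landrace sows and by 0.47 between pregnant and non-pregnant Yorkshire sows (interaction -0.46 ± 0.19, unadjusted p = 0.0324).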

How the data were processed

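The authors deposited log2 expression values per probe set, which RMA makes by background correction, quantile normalization and probe summary; the submitters' processing notes name RMA, affy and limma and give no versions. Differences are therefore relative to the rest of each array, and the number of arrays limits precision. The table held 24123 probe sets, and 124 manufacturer controls were left out. Symbols came from the platform annotation, and all 48 identifiers were found in RefSeq with the same symbol. Coordinates and sequences are not given, because no build or sequence of the array design was given in the sources used here.

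Tests used limma 3.58.1 in R 4.3.3 (lmFit, eBayes, two-sided, Benjamini-Hochberg over 23999 probe sets). Pregnancy and breed were fitted together over 12 arrays (9 residual degrees of freedom), and within-breed contrasts and the interaction in a fit of 4 groups (8 residual degrees of freedom). Each sow is 1 replicate. Named genes were called members, the smooth muscle set, the 4 smallest p per role for pregnancy, the 3 smallest for breed and interaction, the highest and lowest mean per role, and up to 4 called genes of each other list. One of these regulators is not reported here. Members, lists and tests were chosen with earlier results of these data known. On simulated data with noise independent between probe sets and 100 changed probe sets per size, 59% of pregnancy differences of 0.5 and 91% of 1 were recovered. For breed differences these were 56% and 91%. Alternatives were cyclic loess, centring on array medians, leaving out dim probe sets, array weights, a robust prior with a trend on intensity, averaging a gene's probe sets, dropping the other factor, other thresholds, leaving out each sow, leaving out sows 7 and 12, and, chosen after seeing the data, counting all 73 probe sets and a block of neighbouring sow numbers.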

Additional observations from a re-analysis of the deposited data

Results flagged for a closer look

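Of 56 groups of 6 sows examined, 2 for each of 28 named genes, 5 held a sow far from the other 5; chance gives about 1 in 20. In pregnant sows, TNNT2 was 3.758 in sow 10, above 3.426 to 3.512 in the others, and MYO5B was 8.675 in sow 12, below 8.904 to 9.034. In non-pregnant sows, ACTB was 13.002 in sow 11, below 13.397 to 13.592 in the others, and TPM1 was 11.872 in the same sow, above 11.312 to 11.473. MYLK was 6.280 in non-pregnant sow 1, above 5.714 to 5.910. TNNT2 lies near the bottom of the arrays, where values hold mostly background. Without non-pregnant sow 1 the pregnancy difference of MYLK was 0.24, against 0.17 over all sows.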

How the results depend on the processing

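Pregnant and non-pregnant sows share no replicate numbers, but neighbouring numbers (1 and 2, to 11 and 12) hold a pregnant and a non-pregnant sow of one breed, and the labels do not say whether this marks pairs or an order of processing. The deviations of neighbours from their group means correlated at -0.217 to 0.458 across probe sets, and 2 of 6 pregnant sows resembled their own neighbour most, so the numbers were not taken as pairs. With neighbours as a replicate block, added after seeing the data, 4 genes were higher with pregnancy (MYL9, MYLIP, TPM2 and TAGLN) and 1 lower (MYO6). All 10 smooth muscle differences stayed positive under each alternative run (9 of 9 where dim probe sets were left out), cyclic loess and array medians included. MYL9 and MYLIP remained called under cyclic loess, array medians, the dim filter, the trend and array weights. For the counts given here by setting, the share of all probe sets called is not given, so they cannot be set against a background. The count of genes higher with pregnancy, 2, was 5 with array weights, 0 at adjusted p under 0.01, and 0 to 2 without single sows. DES was also called higher with dim probe sets left out, and ACTN2 with probe sets averaged. The count lower, 0, was 4 with array weights, 2 with dim probe sets left out (29 members tested), 3 at adjusted p under 0.1, 5 without sows 7 and 12, and 0 to 3 without single sows. Within Landrace the 0 higher and 0 lower were 1 and 1 with array weights and 2 and 0 without sows 7 and 12, and higher genes numbered 0 to 1 without single sows. Within Yorkshire they were 3 and 5 with array weights, 2 and 4 without sows 7 and 12, and 0 to 1 and 0 to 3 without single sows. For breed, 2 probe sets were lower when all 73 were counted; within non-pregnant sows array weights gave 1 higher and 2 lower, and single sows left out 0 to 1.

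Small differences changed sign. ACTB for pregnancy was 0.033 with probe sets averaged. For breed, averaging gave ACTG2 0.12, ACTN2 -0.097, CALD1 -0.12, MYO5A -0.27 and MYH10 -0.024; MYH10 was -8.81e-06 with cyclic loess, -0.033 with array weights and -0.053 without sows 7 and 12; TNNI3 was 0.0050, 0.050 and 0.19 under the same 3; and without sows 7 and 12 MYL9 was 0.026 and TPM1 0.0069. Without single sows the breed differences ranged over -0.058 to 0.095 for CALD1, -0.075 to 0.20 for CNN1, -0.028 to 0.089 for MYH10, -0.083 to 0.022 for MYL9, -0.20 to 0.0069 for MYLIP, -0.039 to 0.16 for MYO6, -0.084 to 0.031 for MYO7A and -0.15 to 0.083 for TNNI3, and the pregnancy difference of MYO7A over -0.030 to 0.082. The cause was not tested.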

Other observations

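ACTG1, the cytoplasmic gamma-actin, had 6 probe sets among the 73, more than any other of the 48 genes, and they did not move together. For pregnancy their log2 differences ran from -0.15 to 0.17, with 3 positive and 3 negative and none called. For breed they ran from -0.16 to 0.50. The largest, on a probe set near the middle of the arrays, spanned 6.68 to 6.93 in Landrace sows, against 5.78 to 6.70 in Yorkshire sows (adjusted p = 0.0520). Its 2 lowest values were those of pregnant sow 12 and non-pregnant sow 11, at 5.78 and 6.08. The brightest probe set differed by -0.16 in the opposite direction (adjusted p = 0.222). These probe sets were singled out after their values were seen.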
